A study of Mus musculus with 8 samples.

Results

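A set of 9 genes grouped as methyl-CpG and CXXC domain DNA binders was followed through brain RNA of mice labelled wild type or Uhrf2 knockout. The set is Mbd1, Mbd2, Mbd3, Mbd4, Mbd5, Cxxc1, Cxxc4, Cxxc5 and Zbtb33, chosen by name, with earlier results of these data known. All 9 were found, each once, among the 17613 genes of the deposited count table, and all 9 passed the filter on low counts. The study sequenced polyadenylated RNA from brain of C57BL/6 mice, with 4 libraries labelled WT (wild type) and 4 labelled KO (Uhrf2 KO). Its title ties Uhrf2, a nuclear protein that binds modified cytosine, to local 5-methylcytosine and to spontaneous seizures. The deleted part of Uhrf2, the age and sex of the mice and any pooling of mice were not stated in the labels. The labels also do not say that the libraries came from separate animals, so that p-values measure the spread between these libraries, which may be technical.

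In vertebrate DNA most CpG cytosines are methylated, while CpG-rich promoters are mostly free of the mark. Many proteins with a methyl-CpG-binding domain (MBD) recruit corepressors to methylated CpG, whereas many with a CXXC zinc finger bind CpG that carries no methyl group. Neurons hold a high level of DNA methylation, and several of these proteins have been tied to brain development. Mbd1 carries both kinds of domain. Mbd2 reads methylated CpG and Mbd3 binds it poorly, and each can fill the same seat in the NuRD chromatin remodelling and deacetylase complex. Mbd4 is a glycosylase that removes thymine from T:G mismatches at CpG, and Mbd5 is an MBD protein tied to a histone H2A deubiquitinase complex. Cxxc1 is the CpG-binding subunit of the SETD1 complexes, which methylate histone H3 at promoters. Cxxc4 and Cxxc5 are close paralogues that restrain Wnt signalling through Dishevelled, and Zbtb33 (Kaiso) is a zinc finger repressor that binds methylated CpG pairs and an unmethylated sequence.

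Promoter windows of 5 of the 9 genes were read, and those of 3 are shown because CpG is the letter pair that proteins of these families bind. The windows reach from upstream of an annotated start into the transcript (RefSeq, GRCm38.p6, 300 bases, written 5′ to 3′ on the strand of the gene), with every CpG in capitals. Mbd3, the gene with the highest level of the 9 per length of transcript, is read from the minus strand of chr10:80399482-80399781. Cxxc4, the paralogue of the gene that rose, lies on the plus strand of chr3:134236245-134236544. Zbtb33, the Kaiso gene, lies on the plus strand of chrX:38189543-38189842.
Mbd3: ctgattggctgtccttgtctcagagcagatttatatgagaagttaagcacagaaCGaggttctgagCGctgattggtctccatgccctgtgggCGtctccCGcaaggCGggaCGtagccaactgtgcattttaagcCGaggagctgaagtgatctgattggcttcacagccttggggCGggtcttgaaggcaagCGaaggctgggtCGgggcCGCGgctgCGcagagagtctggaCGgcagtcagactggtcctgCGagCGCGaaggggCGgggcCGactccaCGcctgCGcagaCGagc
Cxxc4: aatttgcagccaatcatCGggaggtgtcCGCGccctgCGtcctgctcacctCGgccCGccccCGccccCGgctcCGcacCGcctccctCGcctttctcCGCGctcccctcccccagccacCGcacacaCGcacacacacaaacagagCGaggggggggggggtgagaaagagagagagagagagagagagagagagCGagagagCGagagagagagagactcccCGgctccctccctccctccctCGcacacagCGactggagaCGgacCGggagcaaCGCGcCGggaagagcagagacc
Zbtb33: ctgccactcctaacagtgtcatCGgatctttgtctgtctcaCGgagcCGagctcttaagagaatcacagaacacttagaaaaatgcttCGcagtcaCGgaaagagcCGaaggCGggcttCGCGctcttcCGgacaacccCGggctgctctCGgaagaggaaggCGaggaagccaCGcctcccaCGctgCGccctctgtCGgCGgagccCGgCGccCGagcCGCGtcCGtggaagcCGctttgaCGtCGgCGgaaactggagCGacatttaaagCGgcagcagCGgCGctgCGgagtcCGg
The Zbtb33 window held 34 CpG, the Cxxc4 window 26 and the Mbd3 window 22, against a median of 7 over 32851 promoter windows. Of all windows, 92.3% held fewer CpG than that of Zbtb33, 83.1% fewer than that of Cxxc4 and 76.9% fewer than that of Mbd3. Mbd4 had 25 in its window, and the 2 starts of Mbd5 had 19 and 4. The Kaiso motif TCCTGCNA, searched on both strands, was found in the Mbd3 window and in none of the other 5 windows of these genes, and 4.96% of all windows held it. The letters CGCG, a pair of adjoining CpG, were found in the windows of Mbd3, Mbd4, Cxxc4 and Zbtb33 and in neither window of Mbd5, and 38.0% of all windows held them. A match of letters is a description and not a binding site, and methylation was not analysed here. Windows for the other 4 genes are not used here.

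Of the 9 genes, Cxxc5 was higher in the libraries labelled KO and the other 8 did not pass the test. Cxxc5 stood at 82.5 ± 3.15 CPM (SD, n = 4) in WT-labelled and 99.3 ± 1.47 CPM (SD, n = 4) in KO-labelled libraries, where CPM is the count scaled to library size. The called count of 1 higher and 0 lower of 9 members stands beside 1.14% of 15902 tested genes called higher and 0.289% called lower (quasi-likelihood test of edgeR, Benjamini-Hochberg adjusted p under 0.05 over all tested genes). That Cxxc5 differs was known from earlier results of these data when the set was chosen, so the count is a description. The 2 groups did not overlap in 1 of 9 members and in 7.67% of all tested genes. Members had a median log2 fold change of 0.0093, with 5 positive and 4 negative, against a median of -0.0049 over all tested genes. In bulk tissue such as this, more or fewer cells of a type and more or less RNA per cell cannot be told apart.

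**Figure D1:**
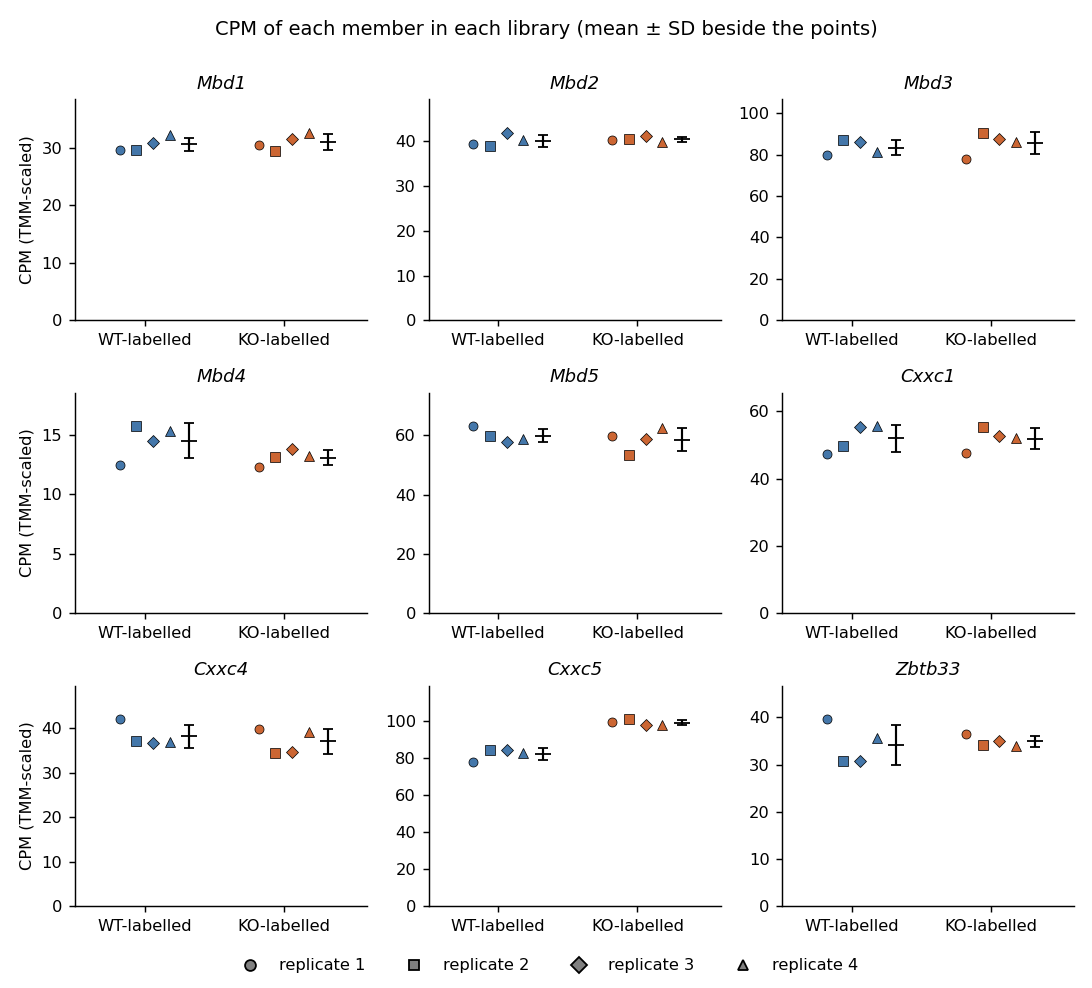
CPM (TMM-scaled) of the 9 members in each library, 4 WT-labelled (blue) and 4 KO-labelled (orange), with marker shape for the replicate number and mean ± SD beside the points. Cxxc5 is the panel in which the groups do not overlap, at 77.9 to 84.7 CPM in WT-labelled and 98.01 to 101 CPM in KO-labelled libraries.

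The libraries held 11891350 to 19773921 counts. Uhrf2, the targeted gene, was measured at 58.0, 47.7, 57.2 and 58.8 CPM in WT replicates 1 to 4 and at 86.4, 88.6, 88.3 and 91.8 CPM in KO replicates 1 to 4, the opposite of what a knockout label states (log2 fold change 0.68, SE 0.058, adjusted p = 5.45e-06). Counts per gene do not show whether those reads come from the deleted part, so groups are called by their labels and every direction rests on them. Over all genes, 182 were called higher and 46 lower, and these counts moved with single libraries. Leaving out WT replicate 3 gave 96 higher genes, while leaving out KO replicate 3 or 4 gave 115 or 121. The lower genes numbered 28 and 14 without WT replicate 2 or 3, and 27, 77, 15 and 25 without KO replicate 1, 2, 3 or 4. In each group the library numbered 1 was the lowest by a measure of base composition. Over 2839 GC-rich and 2839 GC-poor genes (above 55.1% and below 45.4% GC), the GC-rich genes lay lower than the GC-poor ones by a log2 difference of -0.13 in WT replicate 1 and -0.076 in KO replicate 1, relative to their group means. In the remaining libraries this difference ran from -0.032 to 0.084. The last, in KO replicate 2, lay further from its group mean than KO replicate 1 did.

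Cxxc5 (ENSMUSG00000046668, chromosome 18 from 35829397 to 35861688, plus strand, GRCm38) encodes the CXXC protein also known as RINF. Its level was 77.9, 84.5, 84.7 and 82.7 CPM in WT replicates 1 to 4. In KO replicates 1 to 4 it was 99.7, 101, 98.01 and 98.3 CPM. All 4 KO-labelled libraries lay above all 4 WT-labelled ones, and the gap of 13.3 CPM between the highest WT and the lowest KO library exceeded the range within either group, 6.80 and 3.23 CPM. The fitted log2 fold change of Cxxc5 came to 0.27 (SE 0.043), at an adjusted p of 0.00222, which is 1.202-fold with a 95% interval from 1.13 to 1.28. Its p ranked 56 of 15902. In the 8 fits without 1 library the log2 fold change ran from 0.25 to 0.28 and the adjusted p reached at most 0.00928. With both libraries numbered 1 left out, a choice made after seeing the data, it was 0.24 at an adjusted p of 0.00978. With a GC content trend removed from each library it was 0.25 (adjusted p = 0.000635). The annotation places the antisense gene Gm29417 and the same-strand transcript AC141471.2 over exons of Cxxc5, and neither has counts of its own in the table, so their share of these reads was not tested.

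**Figure D2:**
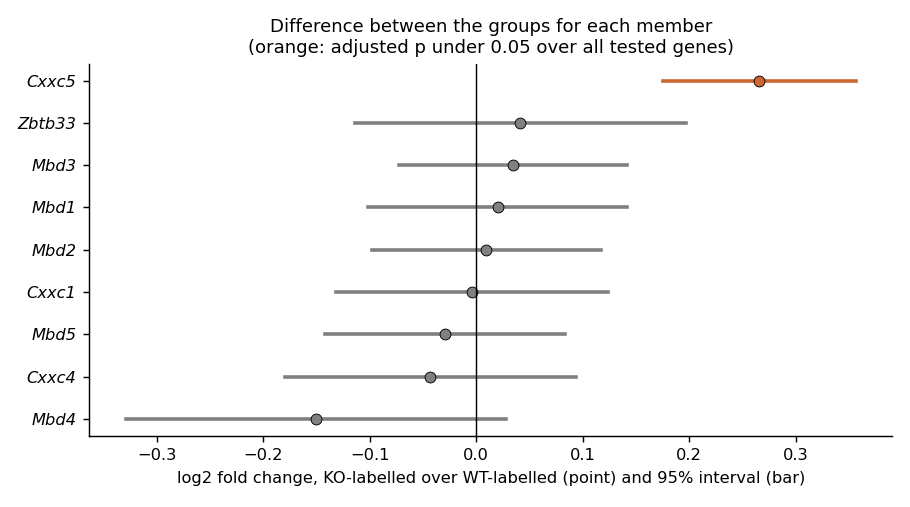
Log2 fold change of KO-labelled over WT-labelled libraries (points) with its 95% interval (bars) for each member, from the edgeR fit over all tested genes. The interval of Cxxc5, 0.18 to 0.36, lies above 0, and those of the other 8 members include 0.

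Cxxc4 (ENSMUSG00000044365, chromosome 3 from 134236484 to 134262161, plus strand), whose product is also called IDAX, stood at 42.0, 37.1, 36.7 and 37.0 CPM in WT replicates 1 to 4. Its KO values were 39.9, 34.4, 34.8 and 39.1 CPM, so that the groups overlapped. For Cxxc4 the fit gave a log2 fold change of -0.043 (SE 0.065) and an adjusted p of 0.854, with a 95% interval of the fold from 0.883 to 1.07. WT replicate 1 lay apart from the other 3 WT libraries, and without it the log2 fold change was 0.0046. Cxxc4 shares exon sequence on the opposite strand with the antisense gene Gm26691, which stood at 4.85 ± 0.45 and 4.33 ± 0.519 CPM (SD, n = 4, adjusted p = 0.698). Whether the counting used strand was not stated, and without strand the reads of such a pair cannot be told apart.

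Whether these paralogues differed in their change was tested as the ratio of their counts within each library. Cxxc5 over Cxxc4 was 1.85, 2.28, 2.31 and 2.24 in WT replicates 1 to 4. It was 2.50, 2.94, 2.82 and 2.52 in KO replicates 1 to 4, all above the WT values. The log2 ratio was higher by 0.31, at 1.43 ± 0.12 against 1.11 ± 0.15 (SD, n = 4), with p = 0.0286 by an exact two-sided permutation test, the smallest that 4 against 4 allows, and 0.0857 after Benjamini-Hochberg adjustment over the 3 ratios tested, which does not pass 0.05. Without WT replicate 1 the difference was 0.24 (exact p = 0.0571). Cxxc5 was known from earlier results of these data to differ between the groups. The direction of this ratio was therefore largely fixed beforehand, and its p adds no separate support for the Cxxc5 difference.

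**Figure D3:**
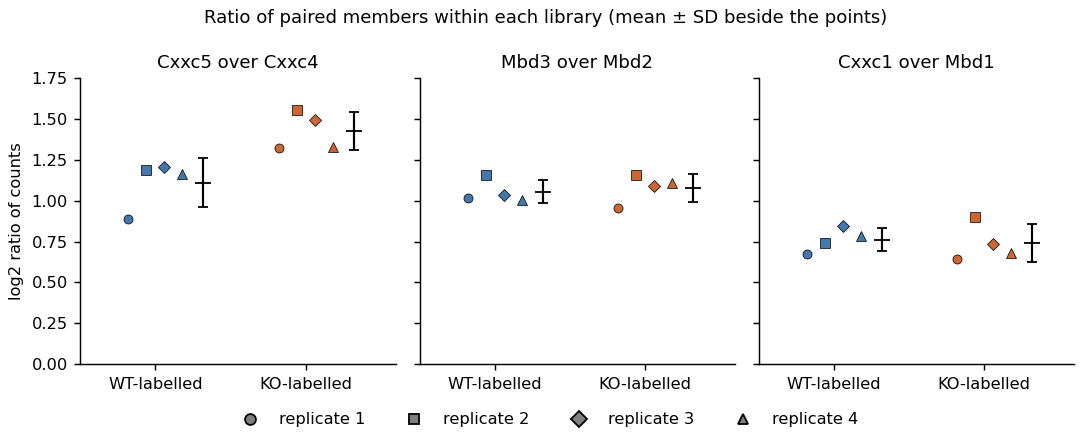
Log2 ratio of counts for 3 pairs of members within each library, WT-labelled (blue) and KO-labelled (orange), with marker shape for the replicate number and mean ± SD beside the points. Cxxc5 over Cxxc4 averages 1.11 in WT-labelled and 1.43 in KO-labelled libraries without overlap, and the other 2 ratios overlap.

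Cxxc1 (ENSMUSG00000024560, chromosome 18 from 74216124 to 74221496, plus strand), the SETD1 subunit, stood at 47.3, 49.7, 55.3 and 55.6 CPM in WT replicates 1 to 4. KO replicates 1 to 4 gave 47.7, 55.3, 52.6 and 52.1 CPM. In both groups replicate 1 was the lowest, and the ranges covered nearly the same values. KO-labelled over WT-labelled libraries, Cxxc1 had a log2 fold change of -0.0039 (SE 0.061) at adjusted p = 0.991, with a 95% interval of the fold from 0.913 to 1.09.

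Mbd1 (ENSMUSG00000024561, chromosome 18 from 74267605 to 74282732, plus strand) encodes the reader that carries both an MBD and CXXC fingers. Its values were 29.7, 29.7, 30.8 and 32.2 CPM in WT replicates 1 to 4 and 30.5, 29.5, 31.6 and 32.6 CPM in KO replicates 1 to 4. The ranges overlapped, at a log2 fold change of 0.020 (SE 0.058) and an adjusted p of 0.934, with a 95% interval of the fold from 0.932 to 1.10. The ratio of Cxxc1 to Mbd1 counts was 1.70 in WT-labelled and 1.67 in KO-labelled libraries (log2 difference -0.021, exact two-sided permutation p = 0.771, 0.771 adjusted over the 3 ratios).

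Mbd2 (ENSMUSG00000024513, chromosome 18 from 70568189 to 70626131, plus strand), the NuRD subunit that reads methylated CpG, had the lowest coefficient of variation of the 9 genes in either group, 3.21% over WT-labelled and 1.37% over KO-labelled libraries. It stood at 39.3, 39.0, 41.8 and 40.4 CPM in WT replicates 1 to 4 and at 40.3, 40.6, 41.1 and 39.8 CPM in KO replicates 1 to 4. All KO values lay inside the WT range. The fitted log2 fold change of Mbd2 came to 0.0093 (SE 0.051), at an adjusted p of 0.970, with a 95% interval of the fold from 0.934 to 1.08.

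Mbd3 (ENSMUSG00000035478, chromosome 10 from 80392539 to 80399550, minus strand), the alternative NuRD subunit, stood at 79.6, 87.0, 85.9 and 81.1 CPM in WT replicates 1 to 4. In KO replicates 1 to 4 it stood at 78.0, 90.3, 87.7 and 85.8 CPM, and both ends of the WT range lay inside the KO range. For Mbd3 the fit gave a log2 fold change of 0.035 (SE 0.051) and an adjusted p of 0.849, with a 95% interval of the fold from 0.951 to 1.10. Its transcript is the most GC-rich of the 9, at 62.9%, and with the GC content trend removed the log2 fold change was -0.0087. The ratio of Mbd3 to Mbd2 counts was 2.08 in WT-labelled and 2.11 in KO-labelled libraries (log2 difference 0.023, exact two-sided permutation p = 0.657, 0.771 adjusted over the 3 ratios).

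Mbd4 (ENSMUSG00000030322, chromosome 6 from 115840697 to 115853371, minus strand), the glycosylase, was the least counted member, with 148 to 291 counts per library. It stood at 12.4, 15.7, 14.5 and 15.3 CPM in WT replicates 1 to 4 and at 12.3, 13.1, 13.8 and 13.2 CPM in KO replicates 1 to 4. Of the WT libraries, 3 lay above every KO library, and WT replicate 1 lay among the KO values. KO-labelled over WT-labelled libraries, Mbd4 had a log2 fold change of -0.15 (SE 0.085) at adjusted p = 0.490, with a 95% interval of the fold from 0.796 to 1.02. Counting error alone came to 8.22% at its lowest count, against 3.25% to 5.32% for the other members at theirs. In the 8 fits without 1 library its log2 fold change ran from -0.20, without WT replicate 1, to -0.11. The antisense gene Gm44206, which has no counts of its own in the table, overlaps its exons.

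Mbd5 (ENSMUSG00000036792, chromosome 2 from 48949508 to 49325405, plus strand) is the longest of the 9 genes, and loss of a copy in people causes a developmental disorder with seizures. It stood at 63.1, 59.7, 58.0 and 58.9 CPM in WT replicates 1 to 4 and at 59.9, 53.4, 58.6 and 62.5 CPM in KO replicates 1 to 4. The groups overlapped, with KO replicate 2 below the rest. The fitted log2 fold change of Mbd5 came to -0.029 (SE 0.054), at an adjusted p of 0.883, with a 95% interval of the fold from 0.906 to 1.06. Its exons overlap those of Orc4, a gene of the opposite strand at 70.8 ± 5.00 and 66.7 ± 3.78 CPM (SD, n = 4, adjusted p = 0.594).

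Zbtb33 (ENSMUSG00000048047, chromosome X from 38189793 to 38197046, plus strand), the Kaiso gene, stood at 39.6, 30.7, 30.7 and 35.6 CPM in WT replicates 1 to 4. In KO replicates 1 to 4 it stood at 36.5, 34.2, 34.98 and 33.9 CPM, all inside the WT range. Its coefficient of variation over the WT libraries, 12.7%, was the highest of the 9 genes, against 3.36% over the KO libraries. For Zbtb33 the fit gave a log2 fold change of 0.042 (SE 0.074) and an adjusted p of 0.879, with a 95% interval of the fold from 0.924 to 1.15. Its transcript is the least GC-rich of the 9, at 39.2%, and with the GC content trend removed the log2 fold change was 0.096 (edgeR, adjusted p = 0.506). Its exons overlap those of Tmem255a on the opposite strand, at 72.5 ± 3.83 and 71.4 ± 0.643 CPM (SD, n = 4, adjusted p = 0.923). Y-linked genes, summed over Ddx3y, Uty, Kdm5d and Eif2s3y, were present in all 8 libraries, at 179 to 222 CPM in WT-labelled and 177 to 184 CPM in KO-labelled ones.

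Across the 8 members that did not pass, the 95% intervals of the fold together ran from 0.796, the lower end for Mbd4, to 1.15, the upper end for Zbtb33. Without Mbd4 the lowest bound was 0.883, and each member's own interval gives the sizes of change that its data leave possible. A p that misses the threshold does not show that the levels were equal.

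Levels between genes were compared per length, as CPM per kb of the longest protein-coding transcript. Mbd3 was highest, at 50.2 ± 2.18 CPM per kb (SD, n = 4) in WT-labelled and 51.4 ± 3.21 in KO-labelled libraries. Cxxc5 came next, at 35.8 ± 1.37 and 43.1 ± 0.639 CPM per kb. Mbd2 at 20.5 ± 0.66 and Cxxc1 at 19.8 ± 1.57 CPM per kb in WT-labelled libraries followed, and their ranges over the 8 libraries overlapped. Below them lay Mbd1 at 7.81 ± 0.308, Mbd5 at 7.01 ± 0.264, Cxxc4 at 6.71 ± 0.449 and Zbtb33 at 6.66 ± 0.843 CPM per kb. The ranges of Mbd5, Zbtb33 and Cxxc4 overlapped from each gene to the next in the order, while those of Mbd1 and Mbd5 did not. The range of Mbd1, 7.54 to 8.31 CPM per kb, still overlapped that of Zbtb33, 5.98 to 7.73, so Mbd1 was not set apart from all genes below it. Mbd4 was lowest, at 4.02 ± 0.407 CPM per kb in WT-labelled libraries. By the means over all 8 libraries, the highest level was 13.3 times the lowest. With the length of all exons of the gene joined, Mbd3, Cxxc5, Cxxc4 and Mbd4 kept their places in the order. Cxxc1 and Mbd2 exchanged theirs, and Zbtb33 moved up to rank 5. By that length the ranges of Cxxc4 and Mbd4 overlapped, at 2.57 to 3.14 and 2.33 to 2.98 CPM per kb. That of Mbd5, 2.72 to 3.22 CPM per kb, overlapped both.

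**Figure D4:**
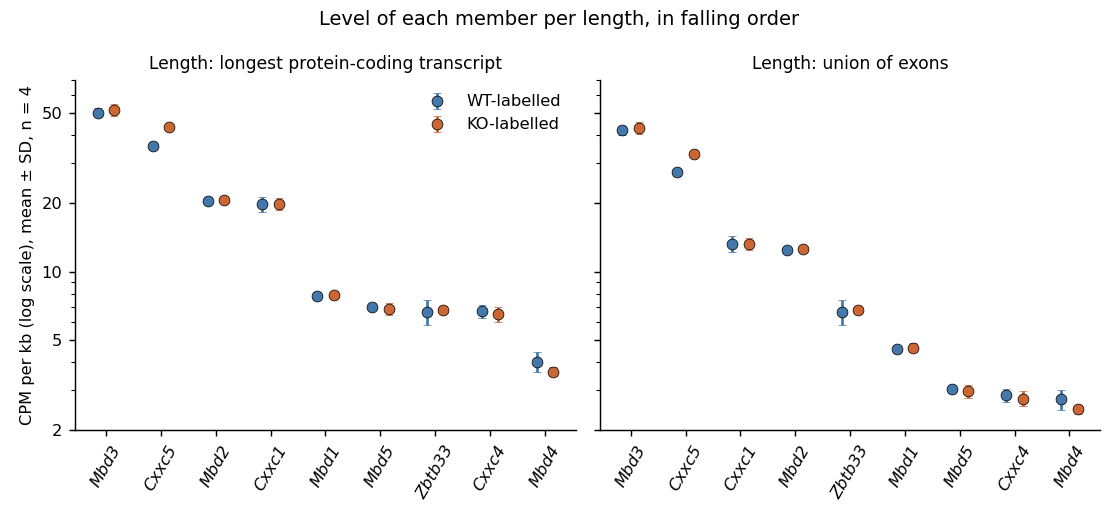
Level of each member in CPM per kb (log axis, mean ± SD, n = 4 libraries a group), ordered from high to low, by the length of the longest protein-coding transcript (left) and of all exons joined (right). Mbd3 and Cxxc5 rank 1 and 2 and Mbd4 ranks 9 under both lengths, though by all exons joined the ranges of Mbd4, Cxxc4 and Mbd5 overlap.

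The genes whose levels followed Cxxc5 most closely over the 8 libraries were sought among 10202 other genes with a mean of at least 10 CPM. They were Efhd2, a calcium-binding protein gene (Pearson r = 0.99), Trnp1, a nuclear protein gene of cortical progenitors (r = 0.98), and Zfpm1, a cofactor of GATA factors (r = 0.98). The 8 points share the difference between the groups, and within the groups the same 3 correlations were 0.84, 0.93 and 0.76. Efhd2 stood at 214 ± 7.57 and 262 ± 3.68 CPM (SD, n = 4, adjusted p = 0.000286) and Zfpm1 at 24.9 ± 1.85 and 33.5 ± 1.08 CPM (adjusted p = 0.00102). Trnp1 stood at 135 ± 6.08 and 153 ± 1.34 CPM (adjusted p = 0.0297). They were picked for following Cxxc5 over both groups, so their direction was largely fixed by that choice and is a description.

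The other genes of these pathways were read from 11 lists, and apart from Uhrf2 edgeR called none of their 83 distinct tested members, 10 of which had an unadjusted p under 0.05, beside 12.6% of all tested genes. Limma-voom also called none, while DESeq2 called 1 of the 80 genes to which it gave an adjusted p, Rbbp7, higher in the libraries labelled KO, beside 2.35% of all genes it tested. Their median log2 fold change was -0.018 and 36 of the 83 were positive, against 48.0% positive over all tested genes. Ranges of the groups lay apart for 10 of these 83 genes (12.05%), beside 7.67% of all tested genes.

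Other genes with a CXXC zinc finger had a median of -0.07, with 2 of 8 positive. Tet1, an enzyme that oxidises 5-methylcytosine, stood at 21.7 ± 0.772 and 18.6 ± 1.19 CPM (SD, n = 4, adjusted p = 0.158), without overlap. Tet3, its relative, stood at 75.3 ± 3.85 and 82.1 ± 4.85 CPM (adjusted p = 0.324). Tet2, which lacks a CXXC domain of its own, stood at 46.3 ± 2.83 and 42.1 ± 0.981 CPM (adjusted p = 0.300), without overlap. Of 5 other genes with an MBD or a related domain, 1 was positive, at a median of -0.072. Baz2b, a bromodomain protein gene, stood at 52.7 ± 2.20 and 48.1 ± 0.779 CPM (adjusted p = 0.255), without overlap. Setdb1, the H3K9 methyltransferase that works with Mbd1, stood at 65.0 ± 3.07 and 61.3 ± 3.74 CPM (adjusted p = 0.538). Other zinc finger readers had a median of -0.033 over 4 tested genes, among them Zbtb38 with a log2 fold change of 0.11 (SE 0.05) and Zfp57, which guards imprinted regions, with -0.23 (SE 0.11).

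NuRD partners of Mbd2 and Mbd3 had a median of 0.0053, with 7 of 13 positive. Rbbp7, a histone-binding subunit, stood at 115 ± 3.09 and 128 ± 2.73 CPM (SD, n = 4, adjusted p = 0.0903), without overlap, and Gatad2b at 19.9 ± 1.31 and 22.7 ± 2.09 CPM (adjusted p = 0.300). SETD1 complex genes around Cxxc1 ran from -0.06 for Wdr5 to 0.033 for Rbbp5, at a median of 0.0042 over 8 genes. Of the Kaiso partners, Tbl1xr1, a corepressor subunit, had 77.8 ± 1.67 CPM in WT-labelled and 73.6 ± 1.97 CPM in KO-labelled libraries (adjusted p = 0.474), without overlap. Its relative Tbl1x had 93.4 ± 5.50 and 88.2 ± 3.93 CPM (adjusted p = 0.536), and the list's median was -0.076 over 6 genes, of which 1 was positive.

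Partners of Mbd1 had a median of -0.045 over 4 genes. Suv39h1, another H3K9 methyltransferase, stood at 30.4 ± 1.44 and 27.7 ± 0.679 CPM (SD, n = 4, adjusted p = 0.367), without overlap. Base excision repair genes around Mbd4 had a median of 0.018, with 6 of 8 positive, where Parp1, a sensor of strand breaks, had 0.065 (SE 0.045) and Polb, the repair polymerase, 0.071 (SE 0.067). PR-DUB genes around Mbd5 had a median of 0.00089 over 7 genes. Ogt, an X-linked sugar transferase of that list, stood at 479 ± 9.81 and 449 ± 23.9 CPM (adjusted p = 0.330), without overlap. Foxk2 stood at 107 ± 2.23 and 113 ± 2.83 CPM (adjusted p = 0.379), also without overlap. Wnt pathway genes around Cxxc4 and Cxxc5 had a median of -0.05, with 7 of 20 positive, where the transcription factors Tcf7 and Tcf7l2 had 0.22 (SE 0.12) and -0.12 (SE 0.07). Axin2, a common readout of Wnt signalling, stood at 24.1 and 24.9 CPM (adjusted p = 0.841). In the same list Notum had -0.24 (SE 0.16), without overlap of the groups. Sp5 had -0.34 (SE 0.29), Rnf43 -0.18 (SE 0.12) and Lef1 -0.16 (SE 0.12), and none of these was called. Axin2 and these genes were named after their values were seen, and Axin2 does not stand for the list.

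**Figure D5:**
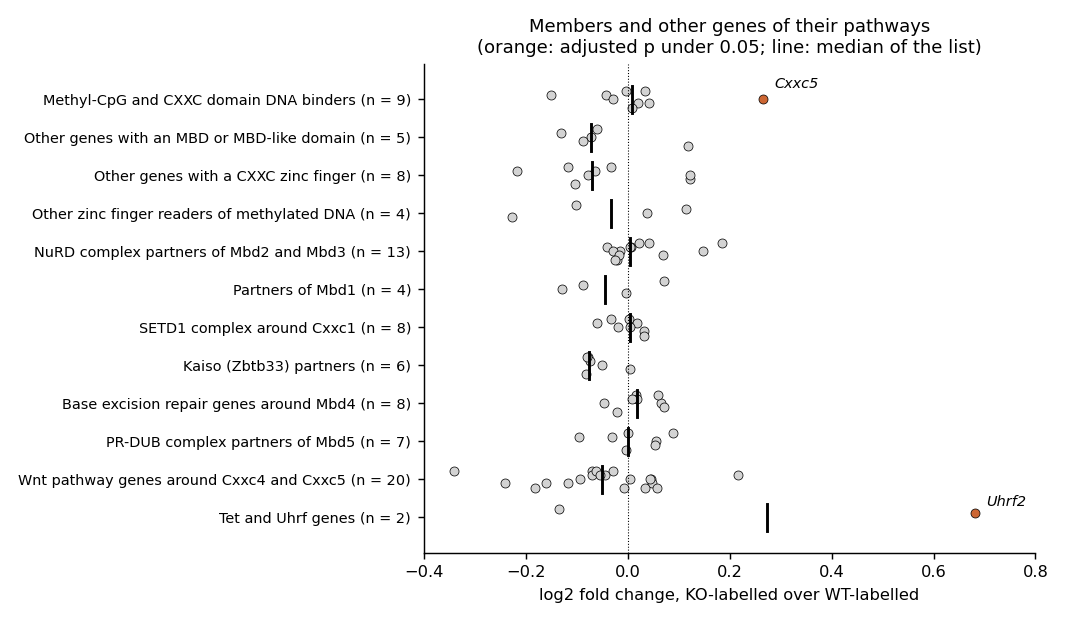
Log2 fold change of KO-labelled over WT-labelled libraries for the members and for each tested gene of the pathway lists (points), with the median of each list (line). Cxxc5 at 0.27 and Uhrf2 at 0.68 are the genes past the threshold.

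Brain cell markers were read beside these results. Of 56 marker genes tested, edgeR and limma-voom called none (12 and 13 had an unadjusted p under 0.05). The 12 of edgeR are 21.4% of the markers, against 12.6% of all tested genes. DESeq2 called 1 of 55, the astrocyte glutamate transporter gene Slc1a3, with 782 ± 16.9 CPM in WT-labelled and 716 ± 20.6 CPM in KO-labelled libraries (SD, n = 4). Of the 6 astrocyte markers 2 were positive, Gfap with a log2 fold change of 0.22 (SE 0.14) and Aldoc with 0.011 (SE 0.039). Neuronal markers were positive in 6 of 6 genes at a median log2 fold change of 0.033, and their summed level ran from 5686 to 6161 CPM in WT-labelled and from 5815 to 6373 CPM in KO-labelled libraries. Endothelial and pericyte markers were positive in 0 of 6 at a median of -0.14, and their sums, 280.3 to 306 and 259 to 279.8 CPM, did not overlap. Cerebellar granule cell markers were also positive in 0 of 6, at a median of -0.16, with sums of 798 to 1022 and 654 to 902 CPM. Medians for astrocytes, oligodendrocytes, their precursors, microglia and choroid plexus lay between -0.073 and 0.027. Pituitary markers were near 0, at 0.919 to 2.45 and 1.78 to 3.06 CPM in sum, and red blood cell markers summed to 49.7 to 74.0 and 50.2 to 81.0 CPM. The part of these cell types in the Cxxc5 difference was not tested.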

How the data were processed

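Brain RNA of 4 libraries labelled WT and 4 labelled KO was sequenced. The authors deposited estimated counts per gene in a single table, with no scaling between libraries. TopHat2 2.0.9, edgeR and GRCm38 (mm10) are named, without role or order, in the submitters' processing notes, and the labels' protocols name a stranded mRNA kit. How reads were counted, and whether by strand, is not given in the sources used here. Counts were rounded (91.5% were whole within 0.001), filtered with filterByExpr, which left 15902 of 17613 genes, scaled by TMM and tested with edgeR 4.0.16 (R 4.3.3; robust quasi-likelihood test, group as the only term, Benjamini-Hochberg threshold 0.05). Each standard error came from the coefficient and its F statistic. The fit was tested on simulated data. Libraries of the same group differed beyond counting noise (chi-square per degree of freedom 2.46 to 5.04) and all were kept, and the totals put 3 counts at 0.152 to 0.252 CPM.

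Positions, lengths and GC content came from GENCODE M21 on GRCm38. RefSeq promoter windows were matched by symbol for 5 of the 9 members. Ratios were compared with an exact permutation test over 70 ways to choose 4 of 8 libraries.

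The members and lists were chosen with earlier results of these data known. The text names all members, the 2 genes of each list with the lowest p, any list gene past the threshold, and the 3 genes most like Cxxc5, without unnamed gene models. Any gene named outside it was picked with its values in view. Atf7ip, present in 2 rows of the table, Atf7ip2, Uhrf1 and Wt1 were left out of their lists, and 2 further list genes are not reported here. Alternatives were other scaling, filters, DESeq2 1.42.0, limma-voom (limma 3.58.1), a replicate block, a GC content trend removed, each library left out, and another gene length.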

Additional observations from a re-analysis of the deposited data

Results flagged for a closer look

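In 5 of 60 groups of 4 libraries, the highest or the lowest library lay far from the other 3 for the range of its group, where chance gives about 1 group in 20. Among the 9 members this held for 1 of 18 groups, Cxxc4 in WT-labelled libraries, with 42.0 CPM in replicate 1 against 36.7 to 37.1 CPM in the others. Uhrf2 was at 47.7 CPM in WT replicate 2, against 57.2 to 58.8 CPM. Tet1 was at 20.6 CPM in WT replicate 3, against 22.0 to 22.3 CPM. In KO-labelled libraries, Zfp57 was at 7.19 CPM in replicate 3 against 9.61 to 9.84 CPM, and Gatad2b at 25.8 CPM in replicate 1 against 21.4 to 21.9 CPM.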

How the results depend on the processing

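Cxxc5 was the member called under all 18 alternatives, at log2 fold changes of 0.24 to 0.28, and no other member was called under any of them. Over all genes, called counts without 1 library ran from 96 to 247 higher and from 14 to 77 lower. With the replicate number as a block they were 347 and 148, and with the block and the GC content trend removed 364 and 142. Same-numbered libraries deviated together for numbers 1, 2 and 4 (r = 0.41, 0.19 and 0.20) but not for number 3 (r = -0.036), and not every library correlated best with its own number, so the numbers were not taken as pairs, though a shared source for some of them was not tested. With both libraries numbered 1 left out, chosen after seeing the data, 18 genes were lower, and the difference in the log2 ratio of Cxxc5 to Cxxc4 was 0.28 at an exact p of 0.10, the smallest that 3 against 3 allows. Without 1 library that difference ran from 0.24 to 0.35.

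Signs turned for members that were not called, and the cause was not tested. With the GC content trend removed, Mbd2 had -0.0062 and Mbd3 -0.0087, and with the block as well -0.0062 and -0.0080. Zbtb33 kept its sign but moved from 0.042 to 0.096 with the trend removed, and to 0.098 with the block as well. Without 1 library the log2 fold change ran from -0.0027 to 0.045 for Mbd1, -0.0055 to 0.034 for Mbd2, -0.061 to 0.013 for Mbd5, -0.039 to 0.033 for Cxxc1, -0.079 to 0.0046 for Cxxc4 and -0.0070 to 0.12 for Zbtb33. The log2 ratio difference ran from -0.0029 to 0.064 for Mbd3 over Mbd2 and from -0.075 to 0.011 for Cxxc1 over Mbd1. By joined exon length, Cxxc1 ranked 3, Mbd2 4, Zbtb33 5, Mbd1 6 and Mbd5 7. The median of all genes moved by at most 0.0043 between scalings. Depth limits Mbd4 most.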
